A study of Rattus norvegicus with 10 samples.

Results

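The 10 genes described here encode enzymes that remove superoxide and peroxides: the peroxiredoxins Prdx1, Prdx2, Prdx3, Prdx5 and Prdx6, the superoxide dismutases Sod1 and Sod2, the glutathione peroxidases Gpx1 and Gpx4, and catalase (Cat). They were chosen by symbol, with earlier results of these data known. All 10 were found among the 17168 genes of the count table and among the 11682 genes with enough reads to be tested. The sequenced RNA came from left hippocampi of female TgF344-AD rats, 5 fed ibudilast in their chow and 5 fed plain rodent chow. Ibudilast feeding began at 5 months of age and lasted 6 months. All rats of both groups were 11 months old when they were anaesthetized with ketamine and xylazine, perfused with saline and dissected. Both groups were transgenic, and no wild-type rats were analysed here. TgF344-AD rats carry mutant human amyloid precursor protein and presenilin 1 transgenes driven by the mouse prion promoter to model Alzheimer disease. The drug ibudilast, taken by mouth, inhibits phosphodiesterases that break down cyclic nucleotides. The title of each library carries its own number, taken here as an animal tag, and the tags ran from 52 to 226.

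Superoxide leaks from the respiratory chain and is made by NADPH oxidases. Superoxide dismutases turn it into hydrogen peroxide, SOD1 mainly in the cytosol and SOD2 in the mitochondrial matrix. Peroxiredoxins, glutathione peroxidases and catalase then remove the peroxide. Peroxiredoxins are mostly recycled by thioredoxin, glutathione peroxidases draw on glutathione, and catalase works in peroxisomes without a thiol partner. In brain, PRDX6 is known mainly from astrocytes, PRDX2 mainly from neurons, and GPX4 is the enzyme that reduces lipid peroxides in membranes.

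Transcripts of 6 of the 10 enzymes were lower in the ibudilast libraries, and 0 were higher (quasi-likelihood test of edgeR, with p-values adjusted by Benjamini-Hochberg over all 11682 tested genes and called under 0.05). The 6 were Prdx1, Prdx6, Gpx4, Cat, Sod1 and Prdx2, with falls between 23.3% and 39.2%. Prdx3, Prdx5, Sod2 and Gpx1 did not pass the test. At an unadjusted p under 0.05, and with DESeq2, again 6 were lower and 0 higher. Of all tested genes, 18.5% were called lower and 20% higher. For 4 of the 10, Prdx1, Prdx6, Gpx4 and Cat, every ibudilast library lay below every untreated library, which was so for 11.7% of tested genes. The opposite separation occurred for 12.5% of tested genes and for 0 of the 10. The median log2 fold change of the 10 was -0.43, against 0.01 over all tested genes. Of all tested genes, 17.3% had a log2 fold change below -0.43. As the 10 were chosen with earlier results known, these comparisons with all genes are not independent of the data. Each gene was covered by 277 to 3860 estimated reads per library.

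**Figure D1:**
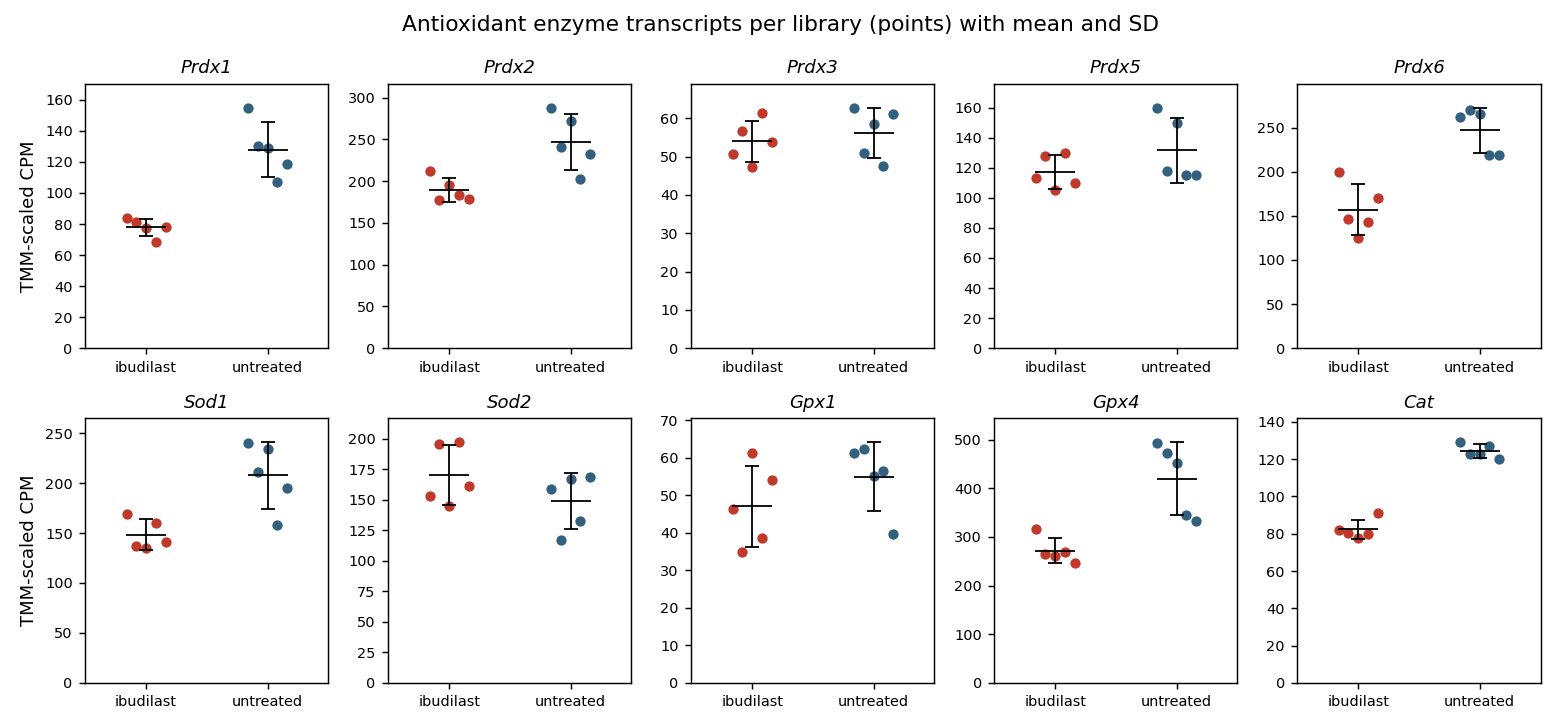
Level of each of the 10 transcripts in TMM-scaled CPM (counts scaled to library size) by group, with each point a library and bars the mean and SD of 5 libraries. For Prdx1, Prdx6, Gpx4 and Cat the ibudilast points all lie below the untreated points, and for the other 6 genes the groups overlap.

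Levels are given in CPM scaled with TMM factors, which correct for differences in library composition. CPM is not divided by gene length, so levels are compared between libraries and not between genes. Total estimated counts were 7553804 to 10121571 in the ibudilast libraries and 6960066 to 8204390 in the untreated libraries. Single libraries carried transcripts of neighbouring tissue. Cerebellar markers added up to 3461 CPM in ibudilast 3. Their sum was 18.7 to 63.0 CPM for the remaining ibudilast libraries and 10.9 to 28.0 CPM for untreated ones. The sum of meningeal fibroblast markers was 947 CPM for ibudilast 3, 1089 CPM for ibudilast 5 and no more than 198 CPM elsewhere. Summed choroid plexus markers reached 2944 CPM in untreated 1, against at most 226 CPM in any other library. Results below are therefore also given without these 3 libraries where that ends a call, turns a direction or moves a value by over 1.5 times.

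Marker lists of the resident cells also differed between the groups. The 10 astrocyte markers summed to 5455 to 6999 CPM in ibudilast libraries and 7464 to 11258 CPM in untreated libraries, with 4 of 10 lower and none higher. The 10 microglia markers summed to 295 to 524 CPM in ibudilast libraries and 588 to 930 CPM in untreated libraries, with 9 of 10 lower. The neuron marker sums overlapped, at 7913 to 10878 CPM with ibudilast and 7648 to 11074 CPM without, and 1 of 10 was lower and 1 higher. Oligodendrocyte marker sums also overlapped, at 5558 to 11505 CPM with ibudilast and 6073 to 18449 CPM without, and 0 of 8 passed edgeR (1 at an unadjusted p under 0.05, and 1 with DESeq2). Neocortical markers summed to 271 to 719 CPM in ibudilast libraries and 145 to 183 CPM in untreated libraries, with 5 of 6 tested higher. Hippocampal field markers overlapped, at 232 to 603 CPM with ibudilast and 250 to 1046 CPM without, with 3 of 5 tested lower. Endothelial markers summed to 225 to 384 CPM with ibudilast and 309 to 478 CPM without, with 3 of 6 lower. Red blood cell markers summed to 2.82 to 29.2 CPM with ibudilast and 5.38 to 29.0 CPM without, and pituitary markers to 0.704 to 58.4 CPM with and 2.42 to 6.76 CPM without. No marker of these lists was at 0 in every library. Their part in the enzyme results was not tested. In bulk tissue, fewer cells of a type and less RNA per cell cannot be told apart.

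Of the 10, the change was largest on the log2 scale for Prdx1, a cytosolic and nuclear peroxiredoxin recycled by thioredoxin. Prdx1 stood at 83.6, 81.1, 77.3, 68.7 and 78.1 CPM in ibudilast libraries 1 to 5, and at 155, 130, 129, 107 and 119 CPM in untreated libraries 1 to 5. No value was shared between the groups' ranges, and the highest ibudilast value was well under the lowest untreated one. The means were 77.8 ± 5.64 CPM with ibudilast and 128 ± 17.7 CPM without (SD, n = 5 each), and the log2 fold change was -0.72 ± 0.10 (SE; 95% interval -0.94 to -0.49; edgeR adjusted p = 0.00109).

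Prdx6 encodes a peroxiredoxin that uses glutathione and also has a phospholipase activity. It had 200, 146, 125, 143 and 170 CPM in ibudilast libraries 1 to 5, and 262, 270, 265, 219 and 219 CPM in untreated libraries 1 to 5. Ibudilast 1 was the highest of its group and still below untreated 4 and 5, the lowest of theirs. The log2 fold change was -0.66 ± 0.13 (SE; edgeR adjusted p = 0.00354), with means of 157 ± 28.9 CPM in ibudilast libraries and 247 ± 25.9 CPM in untreated libraries (SD, n = 5 each).

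Prdx2, another mainly cytosolic peroxiredoxin of the set, had a smaller difference. Its values were 212, 178, 195, 183 and 179 CPM in ibudilast libraries 1 to 5 and 288, 241, 272, 203 and 232 CPM in untreated libraries 1 to 5. Untreated 4 lay below ibudilast 1, and every other untreated library lay above all ibudilast libraries. The log2 fold change was -0.38 ± 0.11 (SE; edgeR adjusted p = 0.0156). This call was lost without untreated 1, ibudilast 3 and ibudilast 5 (log2 fold change -0.31, adjusted p = 0.0925).

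The 2 peroxiredoxins of mitochondria did not pass the test. Prdx3, whose product lies in the mitochondrial matrix, stood at 50.7, 56.6, 47.3, 61.5 and 53.8 CPM in ibudilast libraries 1 to 5 and at 62.7, 50.9, 58.6, 47.5 and 61.1 CPM in untreated libraries 1 to 5. The groups overlapped over most of their range, with a log2 fold change of -0.06 (95% interval -0.29 to 0.17; edgeR adjusted p = 0.687). Without untreated 1, ibudilast 3 and ibudilast 5 it was 0.04 (edgeR adjusted p = 0.819). Prdx5, whose product is found in mitochondria, peroxisomes and cytosol, had 113, 128, 105, 130 and 110 CPM in ibudilast libraries 1 to 5 and 160, 118, 150, 115 and 115 CPM in untreated libraries 1 to 5. Untreated 1 and 3 stood above all other libraries, and the rest overlapped. Its log2 fold change was -0.17 (95% interval -0.43 to 0.09; edgeR adjusted p = 0.281), an interval that still holds falls of the size seen for Prdx2. It was -0.09 without untreated 1 alone and -0.01 without untreated 1, ibudilast 3 and ibudilast 5.

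Of the superoxide dismutases, Sod1 was lower and Sod2 did not pass. Sod1, the copper and zinc enzyme, had 169, 137, 135, 160 and 141 CPM in ibudilast libraries 1 to 5, and 240, 211, 234, 158 and 195 CPM in untreated libraries 1 to 5. Untreated 4 lay within the ibudilast range, and the other untreated libraries lay above it. The means were 148 ± 15.1 CPM with ibudilast and 208 ± 32.9 CPM without (SD, n = 5 each), and the log2 fold change was -0.49 ± 0.12 (SE; edgeR adjusted p = 0.01). Without untreated 1, ibudilast 3 and ibudilast 5 it was -0.37, and the call was lost (adjusted p = 0.0867). Sod2, the manganese enzyme of mitochondria, had 153, 196, 145, 197 and 161 CPM in ibudilast libraries 1 to 5 and 159, 117, 167, 133 and 169 CPM in untreated libraries 1 to 5. Ibudilast 2 and 4 were the highest of all, and the other values overlapped. Its log2 fold change was 0.20 (95% interval -0.09 to 0.48; edgeR adjusted p = 0.253), the only positive one among the 10 with all libraries. It was 0.31 without untreated 1, ibudilast 3 and ibudilast 5 (edgeR adjusted p = 0.157), and 0.12 without untreated 2.

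Gpx4, which reduces lipid hydroperoxides in membranes, was lower, and Gpx1, the main soluble glutathione peroxidase, did not pass. Gpx4 had 317, 265, 261, 270 and 247 CPM in ibudilast libraries 1 to 5, and 494, 472, 453, 345 and 333 CPM in untreated libraries 1 to 5. There was no overlap, although untreated 4 and 5 came close to ibudilast 1. The log2 fold change was -0.62 ± 0.13 (SE; edgeR adjusted p = 0.00434). Gpx1 had 46.5, 34.8, 61.3, 38.7 and 54.1 CPM in ibudilast libraries 1 to 5, and 61.4, 62.4, 55.2, 56.4 and 39.7 CPM in untreated libraries 1 to 5. Within the ibudilast group Gpx1 was highest in ibudilast 3 and 5, which also carried meningeal markers. Untreated 1 to 4 had 55.2 to 62.4 CPM of Gpx1, with meningeal marker sums of 55.3 to 198 CPM. Whether Gpx1 followed these markers was not tested. Its log2 fold change was -0.22 (95% interval -0.60 to 0.15; edgeR adjusted p = 0.316), and -0.42 without untreated 1, ibudilast 3 and ibudilast 5 (adjusted p = 0.0921). It was -0.13 without ibudilast 2 alone.

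Catalase had the smallest standard error of the 10. Cat stood at 82.2, 80.4, 77.6, 80.0 and 91.3 CPM in ibudilast libraries 1 to 5, and at 129, 123, 123, 127 and 120 CPM in untreated libraries 1 to 5. The groups lay far apart relative to their spread, with means of 82.3 ± 5.29 CPM in ibudilast libraries and 124 ± 3.56 CPM in untreated libraries (SD, n = 5 each). The log2 fold change was -0.60 ± 0.07 (SE; edgeR adjusted p = 0.000685), and it was -0.61 without untreated 1, ibudilast 3 and ibudilast 5.

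**Figure D2:**
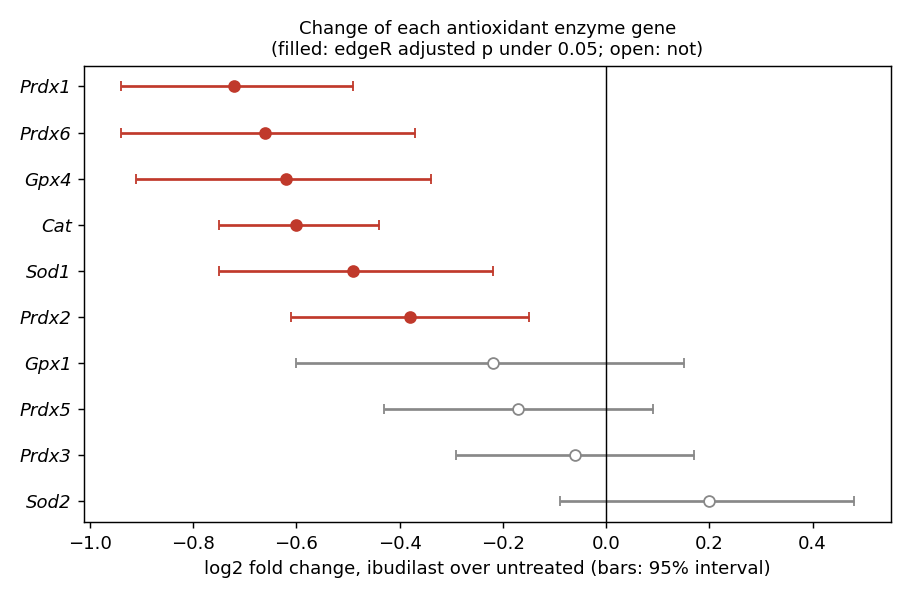
Log2 fold change of each gene, ibudilast over untreated, on the horizontal axis, with bars for the 95% interval, filled where edgeR called the gene and open where it did not. The intervals of Prdx1, Prdx6, Gpx4, Cat, Sod1 and Prdx2 lie wholly below 0, and those of Gpx1, Prdx5, Prdx3 and Sod2 cross it.

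To ask whether related enzymes changed unequally, 5 ratios of 2 transcripts were compared within each library, where library scaling cancels. Each ratio sets a mitochondrial or membrane enzyme, or catalase, against a mainly cytosolic one. The genes were chosen with earlier results of these data known, and the adjustment covers these 5 ratios and no other pairs. The Sod2 to Sod1 ratio was 0.906, 1.43, 1.08, 1.23 and 1.14 in ibudilast libraries 1 to 5 and 0.662, 0.554, 0.711, 0.842 and 0.864 in untreated libraries 1 to 5. All 5 ibudilast values were above all untreated values, and the mean ratio was 1.6-fold higher with ibudilast (log2 difference 0.67 ± 0.16, SE). The two-sided exact permutation p was 0.00794, the smallest that 252 arrangements allow, and 0.0198 adjusted over the 5 ratios. The ratio of Prdx3 to Prdx1, a mitochondrial against a cytosolic peroxiredoxin, was 0.606, 0.698, 0.612, 0.894 and 0.689 in ibudilast libraries 1 to 5 and 0.405, 0.392, 0.456, 0.442 and 0.515 in untreated libraries 1 to 5. These groups did not overlap either, with a 1.57-fold higher ratio in ibudilast libraries (log2 difference 0.66 ± 0.12, SE; exact permutation adjusted p = 0.0198). Both pairs were already visible in the single-gene results, so their ratios are not a separate line of evidence.

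The other 3 ratios did not pass. The Prdx5 to Prdx2 ratio was 0.533 to 0.720 in ibudilast libraries and 0.489 to 0.568 in untreated libraries, a log2 difference of 0.22 ± 0.10 (SE; exact permutation adjusted p = 0.109). The Gpx4 to Gpx1 ratio was 4.26 to 7.61 with ibudilast and 6.13 to 8.38 without (log2 difference -0.37 ± 0.19, SE; exact permutation adjusted p = 0.111). The Cat to Gpx1 ratio was 1.27 to 2.31 with ibudilast and 1.96 to 3.03 without (log2 difference -0.36 ± 0.18, SE; exact permutation adjusted p = 0.109). In both ratios with Gpx1, ibudilast 3 was the lowest library.

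**Figure D3:**
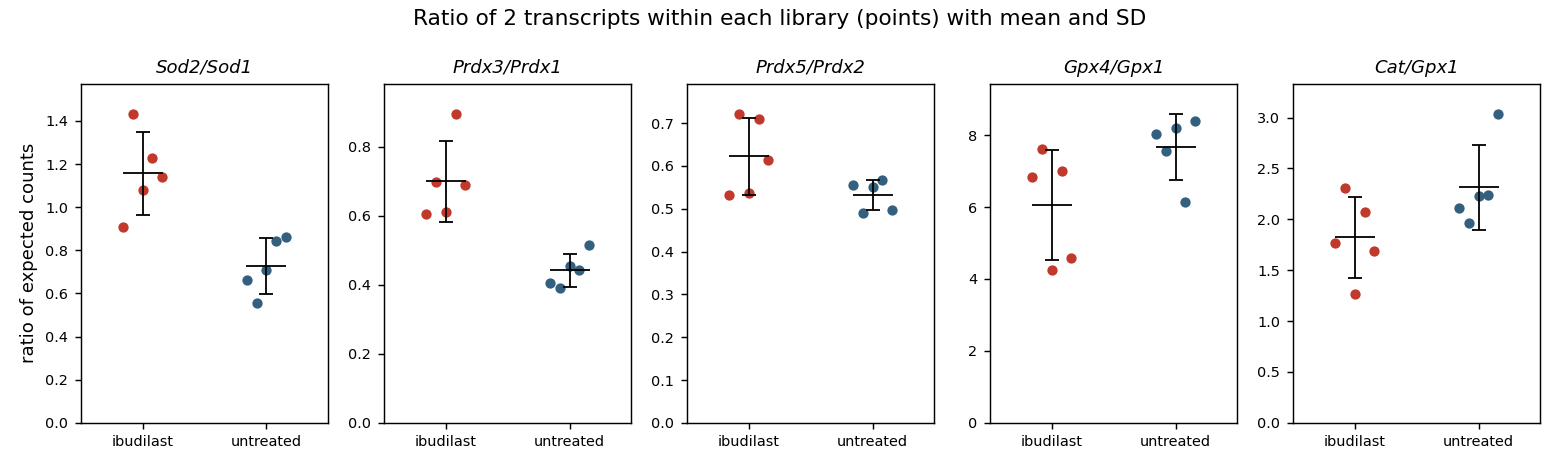
Ratio of the estimated counts of 2 transcripts within each library (points), with mean and SD of 5 libraries, by group. The groups separate fully for Sod2/Sod1 and Prdx3/Prdx1 and overlap for Prdx5/Prdx2, Gpx4/Gpx1 and Cat/Gpx1.

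Promoter sequence was set beside these changes, since several antioxidant genes are known targets of the transcription factor NRF2, which binds antioxidant response elements. RefSeq promoter windows of the GRCr8 assembly (250 bases before to 50 after a start) were matched for 9 of the 10 genes, with 11 windows in all, and none was matched for Prdx6. The core TGACNNNGC, searched on both strands, occurred in 12.1% of all 33469 windows and in 14.8% of the 9210 windows of tested genes. Of the 9 genes, Prdx1, Prdx5 and Sod2 held it, each on the strand opposite to transcription, so that its reverse complement appears in these sequences. They are shown because 1 of the 3 genes with a match was called lower and the other 2 were not. The first base of the match lies at -135 in Prdx1, -1 in Prdx5 and -35 in Sod2, counted from the annotated start, and capitals mark the match with 20 bases on either side.
Prdx1, GRCr8 chr5:135383751-135383799, plus strand: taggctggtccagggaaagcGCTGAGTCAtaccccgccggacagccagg
Prdx5, GRCr8 chr1:213532000-213532048, minus strand: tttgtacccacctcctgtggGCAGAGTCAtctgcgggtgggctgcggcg
Sod2, GRCr8 chr1:50050175-50050223, minus strand: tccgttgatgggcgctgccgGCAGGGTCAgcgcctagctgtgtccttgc

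In Prdx1 the match overlaps TGACTCA, the AP-1 site, read on the same opposite strand from -133. Another AP-1 site of that window lies at -248 on the strand of transcription, outside the stretch shown. That site occurred in 4.63% of all windows and 3.47% of windows of tested genes, and among the 9 genes in Prdx1 alone. The windows of Sod1 and Sod2, whose ratio differed between the groups, both hold a GC box, and Sod1 alone of the pair holds a TATA box. The 250 bases before each start are shown with 2 elements in capitals, the GC box GGGCGG, shown as its reverse complement where it lies on the opposite strand, and the TATA box TATAAA. The response element core of Sod2 is left in lower case here, and a second GC box of Sod2 lies just past the start, outside the stretch shown.
Sod1, GRCr8 chr11:42942573-42942822, plus strand: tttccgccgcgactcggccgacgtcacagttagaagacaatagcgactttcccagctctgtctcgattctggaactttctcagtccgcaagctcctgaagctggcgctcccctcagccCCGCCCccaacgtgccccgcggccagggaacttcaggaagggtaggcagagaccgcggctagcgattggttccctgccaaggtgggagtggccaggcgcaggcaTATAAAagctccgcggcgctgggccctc
Sod2, GRCr8 chr1:50050169-50050418, minus strand: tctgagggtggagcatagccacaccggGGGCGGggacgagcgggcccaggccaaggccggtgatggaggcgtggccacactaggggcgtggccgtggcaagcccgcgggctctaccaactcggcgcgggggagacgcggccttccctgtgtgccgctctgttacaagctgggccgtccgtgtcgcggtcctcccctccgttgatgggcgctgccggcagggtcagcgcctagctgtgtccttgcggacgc
Sod1 holds a TATA box whose first base lies at -28, and the Sod2 window holds none. Prdx1 also holds one, at -32, and the motif was found in 14.2% of all windows and 6.57% of windows of tested genes. The GC box was present for 8 of the 9 genes, all but Cat, and in 33.1% of all windows and 62.3% of windows of tested genes. The median GC content of the 11 windows was 63.7%, against 51.7% over all windows. GC content was not set against windows of tested genes, so this gap cannot be read as particular to these enzymes. A match here describes letters in a window and shows no binding.

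Genes that supply, assist or feed the same reactions were taken from 8 fixed lists, also chosen with earlier results of these data known. Of 102 listed genes, 100 were in the count table and 94 were tested. With ibudilast 37 of the 94 were lower (39.4%) and 6 were higher (6.38%), with a median log2 fold change of -0.29. Over all tested genes 18.5% were lower and 20% higher, with a median of 0.01. With 1 library left out the number lower ran from 22 (without untreated 1) to 35 (without ibudilast 1), and the number higher from 3 to 6, with 3 without untreated 1 or untreated 3. It was also 24 lower without untreated 3. Over all genes the number lower in these fits was 1615 of 11762 without untreated 1, 2284 of 11775 without ibudilast 1 and 1665 of 11769 without untreated 3. Gene by gene, 21 of the 33 genes taken by rule kept their call in all 10 such fits. Without untreated 1, ibudilast 3 and ibudilast 5 together, 30 of the 94 were lower and 3 higher, and of the genes named below Ccs, Txnip, Gclc, Blvrb, Sepp1, Sepsecs, Rac2 and Maoa lost their call. With the trend of each library with genomic span removed, 36 of the 94 were lower and 6 higher. Of the genes named below, Gpx8, Gclc, Blvrb and Sepp1 then lost their call. Ftl1 (log2 fold change -0.36) and Gstk1 (-0.37) moved toward 0 by over 1.5 times, while Maoa (-0.50) moved away from 0 by as much.

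**Figure D4:**
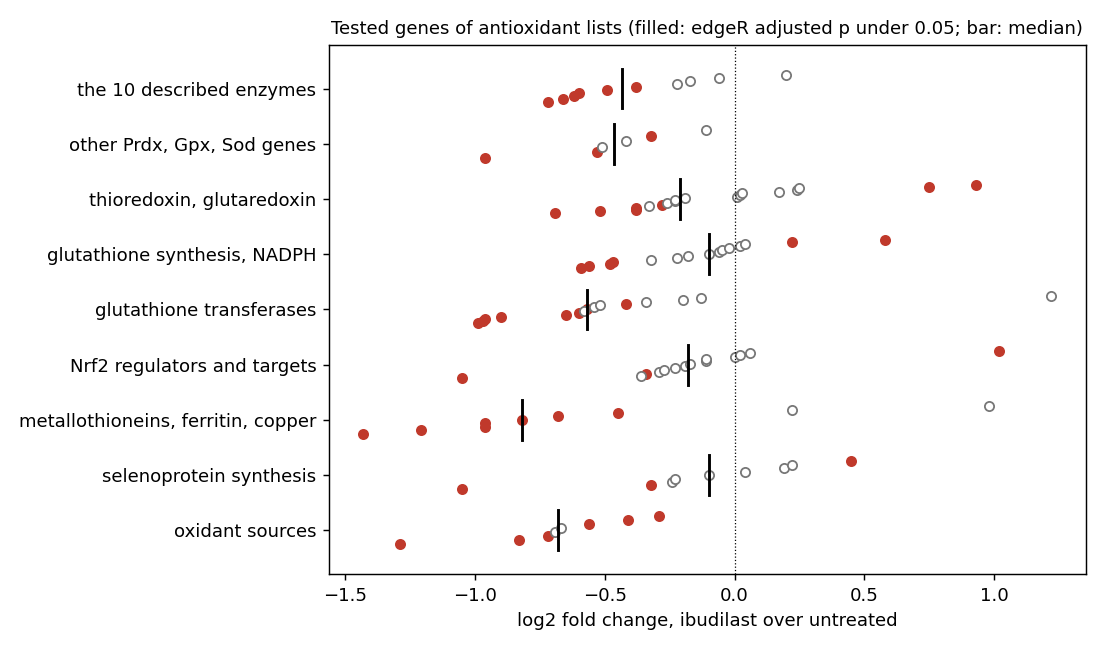
Log2 fold change, ibudilast over untreated, of the tested genes of each list (points, filled where the edgeR adjusted p was under 0.05), with a bar at each list's median. The medians run from -0.82 for metallothioneins, ferritin and copper carriers to -0.10 for glutathione synthesis and for selenoprotein synthesis.

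Among other peroxiredoxin, glutathione peroxidase and superoxide dismutase genes 3 of 6 tested were lower and none higher, with a median of -0.46. For comparison, 18.5% of all tested genes were lower and 20% higher. Sod3, the secreted superoxide dismutase, had 34.0, 24.6, 36.5, 25.3 and 32.9 CPM in ibudilast libraries 1 to 5 and 68.6, 61.1, 61.4, 58.8 and 47.7 CPM in untreated libraries 1 to 5. The groups did not overlap, and the log2 fold change was -0.96 ± 0.14 (SE; edgeR adjusted p = 0.00105). Ccs, the chaperone that loads copper into SOD1, was lower at 26.3 ± 2.04 CPM with ibudilast and 32.8 ± 3.37 CPM without (SD, n = 5 each; edgeR adjusted p = 0.027). Gpx8, which encodes a peroxidase of the endoplasmic reticulum, stood at 13.2 ± 3.04 CPM with ibudilast and 19.0 ± 2.70 CPM without (SD, n = 5 each; edgeR adjusted p = 0.0326). Without ibudilast 4, untreated 1 or untreated 3 both Ccs and Gpx8 lost their call and 1 gene of the list was lower, and without ibudilast 3 there were 5. Ccs also lost it without untreated 5, and Gpx8 without ibudilast 2 or untreated 2.

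In the thioredoxin and glutaredoxin system 5 of 18 genes were lower and 2 higher, with a median of -0.21. The shares over all tested genes were 18.5% lower and 20% higher. Txn1, the cytosolic thioredoxin that recycles peroxiredoxins, had 24.1, 21.1, 17.3, 19.7 and 19.0 CPM in ibudilast libraries 1 to 5 and 41.1, 35.9, 29.9, 32.5 and 23.7 CPM in untreated libraries 1 to 5. Only untreated 5 reached into the ibudilast range, and the log2 fold change was -0.69 ± 0.15 (SE; edgeR adjusted p = 0.00504). Msrb1, a methionine sulfoxide reductase, was lower at 28.4 ± 4.69 CPM with ibudilast and 40.8 ± 4.40 CPM without (SD, n = 5 each). Sesn3, a sestrin induced by FOXO factors, was higher, at 53.3, 67.0, 61.0, 82.3 and 61.6 CPM in ibudilast libraries 1 to 5 and 33.9, 43.2, 34.9, 25.6 and 32.8 CPM in untreated libraries 1 to 5. The groups did not overlap, and its log2 fold change was 0.93 ± 0.15 (SE; edgeR adjusted p = 0.0014). Txnip, which binds and inhibits thioredoxin, stood at 85.7 ± 31.7 CPM with ibudilast and 51.0 ± 12.5 CPM without (SD, n = 5 each; edgeR adjusted p = 0.0437), and kept its call only without ibudilast 1, ibudilast 4 or untreated 2. The number lower in the list was 2 without ibudilast 2, untreated 1 or untreated 3, and 3 without ibudilast 5.

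In glutathione synthesis, recycling and NADPH supply 4 of 15 genes were lower and 2 higher, with a median of -0.10. Beside these counts, 18.5% of all tested genes were lower and 20% higher. Slc3a2, which encodes the heavy chain of the cystine and glutamate exchanger and of other amino acid transporters, was lower at 166 ± 11.4 CPM with ibudilast and 245 ± 17.9 CPM without (SD, n = 5 each), with no overlap. Taldo1, an enzyme of the pentose phosphate pathway, was lower at 88.1 ± 7.88 CPM with ibudilast and 132 ± 16.6 CPM without (SD, n = 5 each). Gclm, the modifier subunit of the enzyme that starts glutathione synthesis, was higher, at 16.2, 16.2, 18.2, 22.3 and 18.0 CPM in ibudilast libraries 1 to 5 and 10.3, 11.7, 11.6, 13.6 and 13.7 CPM in untreated libraries 1 to 5. Its groups did not overlap, and the log2 fold change was 0.58 ± 0.13 (SE; edgeR adjusted p = 0.00588). Gclc, the catalytic subunit of that enzyme, had a log2 fold change (SE) of 0.22 ± 0.07 (edgeR adjusted p = 0.0318), and lost its call without ibudilast 1, ibudilast 5, untreated 1 or untreated 3.

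Glutathione transferases, which join glutathione to electrophiles, were lower in 8 of 15 tested cases and higher in none, with a median of -0.57. Among all tested genes 18.5% were lower and 20% higher. Gstm1 had 172, 113, 121, 108 and 146 CPM in ibudilast libraries 1 to 5 and 276, 323, 254, 244 and 217 CPM in untreated libraries 1 to 5. No untreated value reached the ibudilast range, with a log2 fold change (SE) of -0.99 ± 0.15 (edgeR adjusted p = 0.00122). Gsta1 was lower at 92.5 ± 20 CPM with ibudilast and 180 ± 39.8 CPM without (SD, n = 5 each), and Gstk1, a transferase of mitochondria and peroxisomes, at 13.9 ± 1.32 CPM with ibudilast and 20.7 ± 1.89 CPM without. The Gstm and Gsta genes are close relatives, and how reads were shared among them is an estimate of RSEM.

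Among NRF2 pathway regulators and targets 2 of 14 tested were lower and 1 higher, with a median of -0.18. Neither share was above that over all tested genes, 18.5% lower and 20% higher. The list holds many regulators and only some of the targets, and antioxidant genes of the other lists were not counted here. These shares therefore do not describe NRF2 targets as a class. Hmox1, the inducible heme oxygenase, had 4.82, 4.65, 5.29, 4.11 and 4.36 CPM in ibudilast libraries 1 to 5 and 10.2, 11.4, 6.84, 11.1 and 8.69 CPM in untreated libraries 1 to 5. All ibudilast values lay below all untreated ones, with a log2 fold change (SE) of -1.05 ± 0.17 (edgeR adjusted p = 0.00149). Bach1, which encodes a repressor of Hmox1 and of other genes with antioxidant response elements, was higher at 9.51, 11.9, 15.4, 12 and 12.4 CPM in ibudilast libraries 1 to 5 and 4.86, 6.00, 5.88, 5.23 and 8.14 CPM in untreated libraries 1 to 5. Its groups did not overlap either (log2 fold change 1.02 ± 0.18, SE; edgeR adjusted p = 0.00199). Blvrb, a biliverdin reductase, had a log2 fold change of -0.34 (edgeR adjusted p = 0.0454) and kept its call only without ibudilast 1 or untreated 4. Named after their values were seen, Nfe2l2, the gene of NRF2, had a log2 fold change (SE) of -0.19 ± 0.19 (edgeR adjusted p = 0.429), and its inhibitor Keap1 had 0.02 (edgeR adjusted p = 0.869).

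Metallothioneins, ferritin and copper carriers were lower in 7 of 9 cases, with none higher and a median of -0.82. The background over all tested genes was 18.5% lower and 20% higher. Mt3, the metallothionein of brain, had 271, 189, 139, 190 and 178 CPM in ibudilast libraries 1 to 5 and 543, 528, 456, 400 and 316 CPM in untreated libraries 1 to 5. The groups did not overlap, with a log2 fold change (SE) of -1.21 ± 0.19 (edgeR adjusted p = 0.00134). Fth1, the ferritin heavy chain that stores iron, was lower at 1363 ± 170 CPM with ibudilast and 2645 ± 782 CPM without (SD, n = 5 each), and Ftl1, the light chain, at 446 ± 47.4 CPM with ibudilast and 715 ± 122 CPM without. Mt2A was lower at 27.4 ± 8.80 CPM with ibudilast and 74.0 ± 25.6 CPM without (SD, n = 5 each). Ferritin genes have many processed copies, so their counts are uncertain.

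Of genes listed for selenoprotein synthesis and transport, most of which serve GPX1 and GPX4, 2 of 9 tested were lower and 1 higher, with a median of -0.10. Over all tested genes 18.5% were lower and 20% higher, so the share lower is near the background. Sepw1 encodes a small selenoprotein, a product of selenoprotein synthesis and not a part of it. It was lower at 346 ± 78.9 CPM with ibudilast and 715 ± 139 CPM without (SD, n = 5 each), with a log2 fold change (SE) of -1.05 ± 0.18 (edgeR adjusted p = 0.00186). Sepp1, the selenium carrier, had a log2 fold change of -0.32 (edgeR adjusted p = 0.0391) and lost its call without ibudilast 1, ibudilast 4, untreated 1, untreated 2, untreated 3 or untreated 4. Sepsecs, which makes the selenocysteine carried by its transfer RNA, had 0.45 ± 0.14 (SE; edgeR adjusted p = 0.0244) and lost its call without ibudilast 2, untreated 1 or untreated 3.

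Sources of oxidants were lower in 6 of 8 tested cases and higher in none, with a median of -0.68. Shares of all tested genes were 18.5% lower and 20% higher. Maob, a mitochondrial amine oxidase that releases hydrogen peroxide and is known from astrocytes, had 72.7, 59.1, 50.7, 50.8 and 64.9 CPM in ibudilast libraries 1 to 5 and 99.0, 126, 120, 95.1 and 91.6 CPM in untreated libraries 1 to 5. The groups did not overlap (log2 fold change -0.83 ± 0.13, SE; edgeR adjusted p = 0.00134). Rac2, a GTPase that activates the phagocyte NADPH oxidase, had a log2 fold change of -0.72 (edgeR adjusted p = 0.0329), and Maoa -0.29 (edgeR adjusted p = 0.0359). Rac2 lost its call without ibudilast 2, ibudilast 3, ibudilast 4, untreated 1 or untreated 2. Maoa lost it without ibudilast 1, ibudilast 2, ibudilast 3, untreated 1, untreated 3 or untreated 5. The number of the list's genes lower was 2 without ibudilast 2, ibudilast 3 or untreated 1, and 3 without ibudilast 4, untreated 2 or untreated 3.

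Within the groups, some of the 10 enzymes varied together from library to library. After centring log2 CPM within each group, Pearson's r over the 10 libraries was 0.88 for Prdx2 with Sod1, 0.87 for Prdx3 with Sod2 and 0.81 for Gpx4 with either Prdx2 or Sod1. Sod2 and Gpx1 had the most negative value, r = -0.74. The 5 genes whose centred pattern was most like the mean of the 10, among 8986 genes compared, were Vdac3 (r = 0.96), Atp5o (0.95), Psma6 (0.95), Tceb2 (0.94) and Cd59 (0.94). Vdac3 encodes a channel of the outer mitochondrial membrane, Atp5o a subunit of ATP synthase, Psma6 a proteasome subunit, Tceb2 elongin B and Cd59 an inhibitor of complement. Each was lower with ibudilast, with log2 fold changes of -0.46 for Vdac3, -0.50 for Atp5o, -0.40 for Psma6, -0.77 for Tceb2 and -0.38 for Cd59. The libraries share their depth and tissue composition across genes, and these correlations are a description.

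The animal tags fall into a range under 100, with 3 libraries in each group, and a range of 200 and over, with 2 in each group. The sources used here do not say what the ranges stand for. In the lower range Gpx4 averaged 281 CPM in ibudilast libraries and 473 CPM in untreated libraries, and in the upper range 259 CPM in ibudilast libraries and 339 CPM in untreated libraries. Sod1 averaged 147 CPM with ibudilast and 228 CPM without in the lower range, and 151 CPM with and 177 CPM without in the upper range. Cat averaged 80.1 CPM with ibudilast and 125 CPM without in the lower range, and 85.6 CPM with and 123 CPM without in the upper range. The log2 fold changes of the 6 genes called lower were -0.75 to -0.43 in the lower range, where 5 passed and Prdx2 did not (adjusted p = 0.0605). They were -0.59 to -0.21 in the upper range, where edgeR called 0 of the 10 (4 at an unadjusted p under 0.05) and 540 tested genes in all. With the tag range as a factor all 6 remained called lower.

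**Figure D5:**
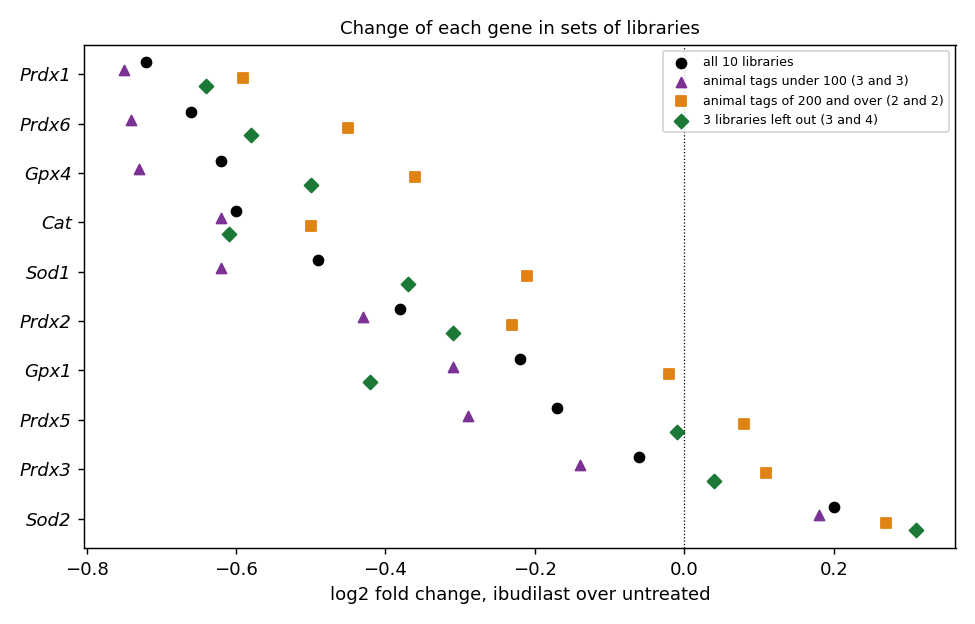
Log2 fold change of each gene, ibudilast over untreated, from all 10 libraries, from the libraries with tags under 100 (3 and 3), from those with tags of 200 and over (2 and 2), and without untreated 1, ibudilast 3 and ibudilast 5 (3 and 4). Points of Prdx1, Prdx6, Gpx4, Cat, Sod1 and Prdx2 lie below 0 in every set, and those of Prdx3 and Prdx5 fall on both sides.

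The 10 genes are compact, with genomic spans of 1127 to 32187 bases in the GRCr8 RefSeq table. The 6712 tested genes with spans inside that range had a median log2 fold change of -0.11, with 24% lower and 11.8% higher, whereas the 4691 longer genes had a median of 0.22, with 10.1% lower and 32.5% higher. With the trend of each library with span removed, Prdx1 (-0.68), Cat (-0.68), Prdx6 (-0.57), Gpx4 (-0.36) and Sod1 (-0.31) were called lower. Gpx4 and Sod1 thus had values over 1.5 times closer to 0 than before. Prdx2 had -0.20 and was no longer called (adjusted p = 0.0987), Sod2 had 0.35 (adjusted p = 0.0912), and Prdx3 (0.01), Prdx5 (0.06) and Gpx1 (0.15) were on the positive side without passing the test. What the trend with span reflects was not tested.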

How the data were processed

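Libraries of mRNA were made with a stranded kit, per the labels' protocols. The sources used here do not say whether strand was used in counting. The authors deposited expected counts per gene. Per the submitters' processing notes, their tools included RSEM 1.2.15, Bowtie2 2.1.0 and bcl2fastq 2.17, and the build was rn6. The deposited signal values are scaled CPM, and the same notes name edgeR. TMM-scaled CPM recomputed here matched 99.9% of them within 0.1%.

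Expected counts were rounded, of which 10.6% to 11.3% a library had a fraction. The main test was that of edgeR 4.0.16, run in R 4.3.3 (filterByExpr, TMM, quasi-likelihood test, Benjamini-Hochberg over 11682 genes, adjusted p under 0.05). Ratios of 2 genes used unrounded expected counts and two-sided exact permutation tests, adjusted over 5 ratios. Rows with a date in place of a symbol numbered 25 and concern none of the listed genes.

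The 10 genes and all lists were chosen with earlier results of these data known. Named were the 10 genes, up to 4 called genes in each direction of each list by smallest p (some given as counts only, and some not reported here), and the 5 genes most like the mean of the 10 with a mean of at least 10 CPM, on log2(CPM + 0.5). Alternatives covered scaling, filters, DESeq2 1.42.0, limma-trend (limma 3.58.1) on log2 of the deposited values plus 1 or 0.5, the replicate block, tag ranges, libraries left out and removal of the span trend. A genomic span was matched to 98.1% of the genes tested. As the counts use rn6 and the sequences GRCr8, sequences describe the gene and not the counted reads. No male rats were analysed here.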

Additional observations from a re-analysis of the deposited data

Results flagged for a closer look

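Values were tested for a library far from the 4 others of its group over 120 groups of 5 libraries (43 genes, 5 ratios and 12 marker lists), and chance flags about 1 in 20 such groups. None of the 10 enzymes and none of the 5 ratios had one. Among the pathway genes, Ccs was set apart in ibudilast 4, at 22.8 CPM, the lowest of its group. The other 6 were marker sums. Oligodendrocyte markers summed to 11505 CPM in ibudilast 2, the highest of its group. Choroid plexus markers summed to 226 CPM in ibudilast 2 and to 2944 CPM in untreated 1, each the highest of its group. Meningeal fibroblast markers summed to 198 CPM in untreated 1, the highest untreated library. Cerebellar markers summed to 3461 CPM in ibudilast 3. Pituitary markers summed to 6.76 CPM in untreated 5, the highest untreated library.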

How the results depend on the processing

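Of the 10 enzymes 6 were called lower and 0 higher with DESeq2 size factors, upper-quartile factors, no filter, the stricter filter, the DESeq2 test, both limma-trend fits, the tag range as a factor, and with each library left out (6 to 6 lower). The number lower was 0 for animal tags of 200 and over, where Prdx3 (0.11) and Prdx5 (0.08) were positive, and the cause was not tested. Prdx3 also turned to 0.04 without untreated 1, ibudilast 3 and ibudilast 5, to 0.01 with the span trend removed, and to between -0.11 and 0.00 with 1 library left out. With the span trend removed Prdx5 was 0.06 and Gpx1 0.15, and again the cause was not tested. The log2 difference in the Sod2 to Sod1 ratio was 0.68 without those 3 libraries, 0.67 with the replicate block, 0.81 for tags under 100 and 0.48 for tags of 200 and over. That in the Prdx3 to Prdx1 ratio was 0.69, 0.66, 0.61 and 0.72 in the same order. The tests of both ratios within a tag range were added after seeing the data. None of these 4 settings can give an exact p below 0.05, the smallest being 0.0571, 0.0625, 0.1 and 0.333. With 1 library left out these differences were 0.58 to 0.76 and 0.56 to 0.71. Over all genes the number lower and higher was 2160 and 2337, and it was 815 and 1182 for tags under 100, 126 and 414 for tags of 200 and over, and 1357 and 1755 without the 3 libraries. Same-numbered libraries did not deviate together (r between -0.13 and 0.02). The labels state no paired design, and these correlations cannot show whether the numbers pair the samples. With the replicate block 6 enzymes were lower and 1661 genes in all, and 27 pathway genes were lower. Of the 94 pathway genes 18 were lower and 3 higher for tags under 100, and 1 and 1 for tags of 200 and over, against 37 and 6 with all libraries. With upper-quartile factors 4 NRF2 pathway genes were lower (2 with TMM), and with the span trend removed 7 of glutathione synthesis and NADPH supply (4 before). Counts ran from 277 to 3860 reads, and the SE of the log2 fold change did not simply follow them. Gpx1, with 277 to 571 reads, had the largest SE, 0.17. Gpx4, with 2109 to 3860 reads, had 0.13, and Cat, with 631 to 1002, had 0.07.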
